A study of Homo sapiens with 8 samples.

Results

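The expression of 36 genes that choose splice sites was followed on oligonucleotide arrays: SR proteins, Tra2 proteins, hnRNP proteins, PTB proteins, factors that recognise the branch point and the 3' splice site, and CLK kinases. Array features were taken as members when their annotation gave exactly 1 gene, that gene was one of the 36, and a value was present in all 8 samples. This rule found 83 of the 91 features annotated to these genes, with at least 1 feature for each of the 36 genes. They stand among 25094 features with values, which cover 13469 genes.

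SR proteins carry RNA-binding domains and a tail rich in arginine and serine. They bind exonic enhancers and help spliceosome components to settle on nearby splice sites, and the Tra2 proteins act in a related way. Proteins of the hnRNP class coat nascent transcripts and often silence exons, and the polypyrimidine tract-binding proteins PTBP1 and PTBP2 belong to this silencing machinery. CLK kinases phosphorylate the arginine-serine tails. Many of these genes control their own transcripts through poison exons, whose inclusion sends the transcript to nonsense-mediated decay.

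The samples were HEK293 cells, an established line of human fetal kidney cells transformed with adenovirus 5 DNA. Sense samples carried a linearised pBudCE4.1 vector expressing a KLHL29 intronic insert in sense orientation, and antisense samples carried this vector with the insert turned to antisense. There were 4 samples per construct. In all 8, zeocin at 50 µg/ml had selected the transfected cells for one month, and the resistant cells were kept as a mixed population. The 4 samples of a construct were grown from frozen populations of a single transfection, so the construct and the transfected pool that carries it cannot be told apart, and p-values measure the spread between these samples. Cells with no construct or with an empty vector were not analysed here, and each difference is sense minus antisense. Replicates 1 and 3 of each construct carried the dye Cy3 and replicates 2 and 4 carried Cy5. The series title concerns proliferation of tumorigenic lines, and the arrays ask which transcripts differ between the orientations.

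Values are log2 of the deposited intensities, whose absolute scale is not given. In units of 1000000 on the deposited scale, column medians were 579 for sense 1 and 2, 590 for sense 3 and 4, 571 for antisense 1 and 2, 548 for antisense 3 and 549 for antisense 4. Whether samples of near-equal median shared an array is not stated, and if they did, the 4 samples of a construct are not fully independent. The 1 KLHL29 feature with a value was below the inferred detection limits in every sample, at 9.13 to 17.1 such units, and since its place relative to the insert is not given it does not check the labels. Of 10 genes taken as HEK293 markers, 9 were detected in both constructs and PAX2 was under the limits. Among markers of other cell types, CD3E, CD79A, COL1A1 and AQP2 were also above the limits, while PTPRC, APOA1, PECAM1, CDH5, COL1A2 and SLC12A1 were under them, and the lowest adjusted p of a marker was 0.23 (NEFL, limma). In extracts of whole cultures, fewer cells of a kind and less RNA per cell cannot be told apart. Sense 4 and antisense 2 stood apart from the other samples of their construct. Without sense 4 the mean coefficient of variation of the sense samples was 0.189, against 0.213 to 0.242 when another sense sample was left out. Without antisense 2 that of the antisense samples was 0.119, against 0.166 to 0.182. The stated design leaves out 1 sample per construct by this measure, so results are also given for the other 3 against 3 samples. That choice rests on the values and lowers the spread within each construct.

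All of the 36 genes were detected in both constructs by their brightest feature, and none passed the test between them. With all 8 samples and dye in the model, limma called 0 of the 83 features at an adjusted p under 0.05, against 17 of 25094 features in all (0.0677%). At an unadjusted p under 0.05, 10 of 83 features had lower values in sense samples (12%), against 7.5% of all features, and 1 had higher values (1.20%), against 6.65%. Counted by the brightest feature of each gene there was no such excess, with 3 of 36 genes lower (8.33%) against 8.26% of all genes. Among genes with a mean signal of at least 32 log2 units it was 1 of 29 members (3.45%) against 15.6% of all. The brightest features of the genes differed by between -0.48 and 0.42 on the log2 scale, and 25 of 36 differences were negative. Their median was -0.17, against -0.04 over all 25094 features and -0.05 over the brightest features of all 13469 genes. With quantile normalization 20 of the 36 were negative and the median was -0.05, and with median centring 28 were negative and it was -0.23. The median also depended on single samples, at -0.07 without antisense 4 and -0.08 without sense 4.

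Bright features as a whole shared that sign. Over all genes the median difference ran from 0.10 for mean signals of 27 to 28 log2 units to -0.19 for signals of 34 to 35 log2 units. Of the 36 splicing genes, 29 had a mean signal of 32 log2 units or more. The median difference of these 29 was -0.17 and 22 of them were negative (75.9%). All 2505 genes with such signals had a median of -0.15, and 76.0% of them were negative. The share of negative differences was thus near that of other genes of like brightness, and whether signal level has a part in it was not tested.

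**Figure D1:**
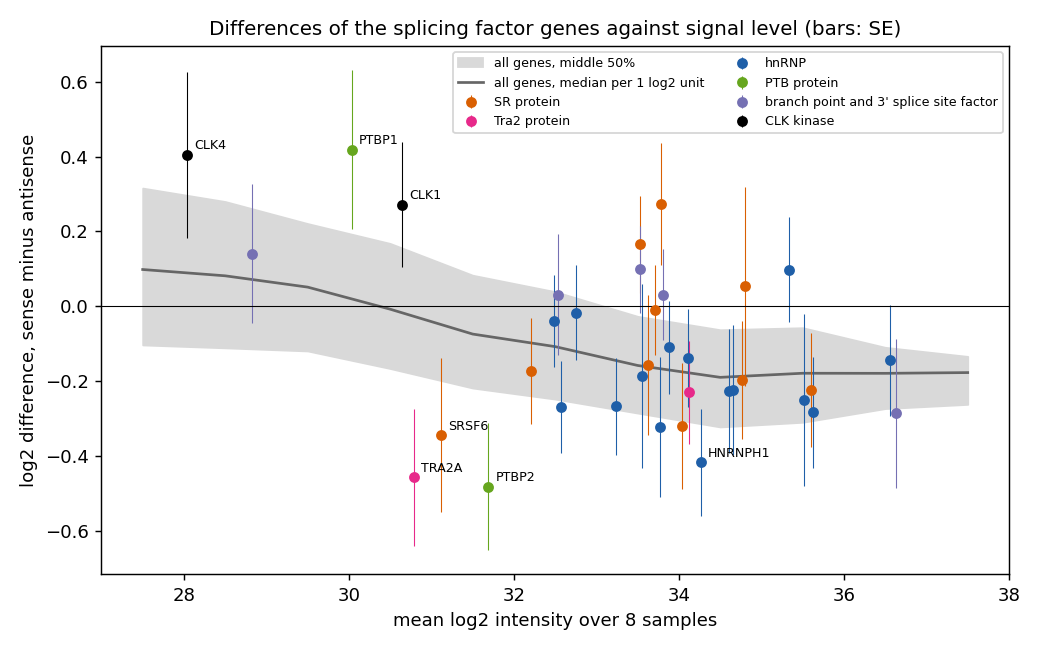
Log2 difference, sense minus antisense, of the brightest feature of each of the 36 genes (points, coloured by role, bars are SE from limma on 8 samples) against its mean log2 intensity. The grey line and band give the median and the middle 50% of all genes per log2 unit of signal. The line falls from 0.10 at the dim end to near -0.19, and most splicing genes lie at the bright end, while PTBP2 (-0.48), TRA2A (-0.46) and SRSF6 (-0.34) lie below the band at lower signals and CLK4 (0.40) and PTBP1 (0.42) lie above it.

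Among the PTB proteins the brightest features of the paralogs had opposite signs. PTBP2, the paralog known for its expression in neurons, had values of 31.52, 31.37, 31.46 and 31.46 in sense 1 to 4, against 32.01, 31.36, 32.18 and 32.18 in antisense 1 to 4. The sense values lay within a narrow range, and 3 antisense values lay above all of them while antisense 2 was the lowest of the 8. The means were 31.45 ± 0.06 in sense and 31.93 ± 0.39 in antisense samples (SD, n = 4 each), with a difference of -0.48 (SE 0.17, adjusted p = 0.30, limma). With 3 against 3 samples PTBP2 was lower in sense cells by a difference of -0.67 (SE 0.11, adjusted p = 0.023, limma). The second PTBP2 feature, a dimmer one annotated to a cDNA outside RefSeq, differed by -0.04.

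PTBP1, the broadly expressed family member that silences a PTBP2 exon in cells other than neurons, had 30.28, 29.63, 30.96 and 30.10 in sense 1 to 4, against 29.90, 29.97, 29.77 and 29.65 in antisense 1 to 4. The highest 3 values were sense samples, but sense 2 was the lowest of all 8, so the groups overlapped. Its difference was 0.42 (SE 0.21, adjusted p = 0.38, limma) on its only feature. Within the Cy3 samples it was 0.78 and within the Cy5 samples 0.05. The difference without sense 3 was 0.21.

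The genomic sequence just upstream of the starts of this pair is shown because the brightest PTBP2 and PTBP1 features had the lowest and the highest differences of the set. RefSeq sequences of build GRCh38.p14 are printed 5′ to 3′ on the gene's strand, for PTBP2 from chr1:96722388-96722637 (+) and for the more upstream of the PTBP1 starts from chr19:797202-797451 (+). Capitals mark GC boxes (GGGCGG) and CCAAT boxes (CCAAT) on either strand. PTBP2 had 1 GC box in this window, and PTBP1 had 3 GC boxes and 2 CCAAT boxes.
PTBP2: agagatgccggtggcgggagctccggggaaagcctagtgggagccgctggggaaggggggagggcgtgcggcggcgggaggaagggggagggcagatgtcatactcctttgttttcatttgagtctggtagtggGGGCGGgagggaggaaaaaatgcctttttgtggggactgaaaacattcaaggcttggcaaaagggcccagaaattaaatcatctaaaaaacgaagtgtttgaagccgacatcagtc
PTBP1: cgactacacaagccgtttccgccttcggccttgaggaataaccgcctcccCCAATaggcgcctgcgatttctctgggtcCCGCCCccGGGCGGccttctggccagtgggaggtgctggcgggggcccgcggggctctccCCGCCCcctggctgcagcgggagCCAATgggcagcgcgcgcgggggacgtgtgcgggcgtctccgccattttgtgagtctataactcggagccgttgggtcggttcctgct

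Both Tra2 genes had negative differences on their brightest feature. TRA2A, which binds purine-rich exonic enhancers, had 30.56, 30.77, 30.61 and 30.29 in sense 1 to 4, against 31.12, 30.47, 31.21 and 31.25 in antisense 1 to 4. Antisense 1, 3 and 4 lay above every sense sample, while antisense 2 lay among them. The means were 30.56 ± 0.20 in sense and 31.01 ± 0.36 in antisense samples (SD, n = 4 each), and the difference was -0.46 (SE 0.18, adjusted p = 0.33, limma). In the 3 against 3 samples it was -0.55 (SE 0.11, adjusted p = 0.040, limma). The other TRA2A features, both annotated to cDNAs outside RefSeq and dimmer, differed by 0.11 and 0.45, so the mean over the gene's features turned to 0.036.

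TRA2B, the paralog with which TRA2A shares its RNA motif, had 34.25, 33.96, 34.11 and 33.72 in sense 1 to 4, against 34.32, 33.88, 34.40 and 34.36 in antisense 1 to 4. As for TRA2A, antisense 1, 3 and 4 were the highest 3 values and antisense 2 fell among the sense samples. The difference was -0.23 (SE 0.14, adjusted p = 0.42, limma), and -0.12 without antisense 4, and within the dyes it was -0.18 (Cy3) and -0.28 (Cy5).

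**Figure D2:**
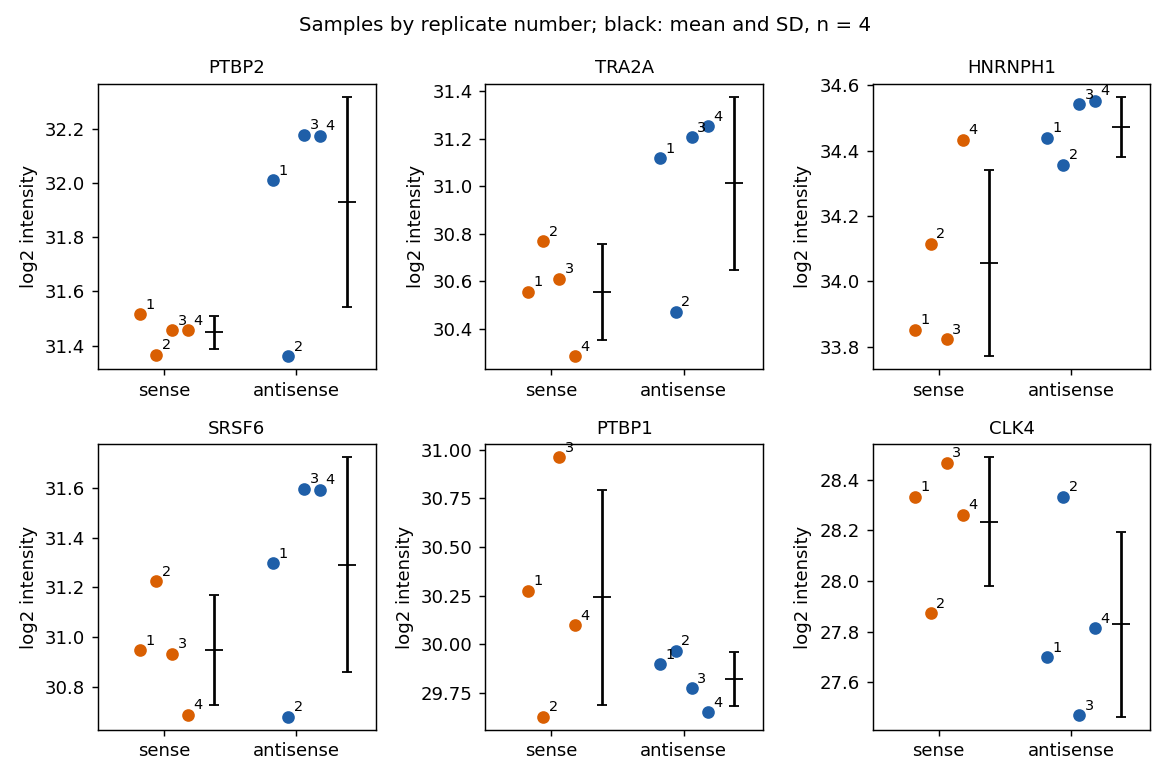
Log2 intensity of the brightest feature of 6 splicing genes in each sample, with sense samples left and antisense samples right in each panel (numbers are replicates, black bars are mean and SD, n = 4). In PTBP2, TRA2A and SRSF6, antisense 1, 3 and 4 lie above the sense samples and antisense 2 is among or below them, with 31.36 for PTBP2. The axes do not start at 0.

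Of the 10 SR protein genes, 7 had negative differences and 3 positive ones, with a median of -0.17 and 0 called. With quantile normalization 6 were negative and the median was -0.05. SRSF6 had the lowest of these differences, and its brightest feature read 30.95, 31.23, 30.93 and 30.69 in sense 1 to 4, against 31.30, 30.68, 31.60 and 31.59 in antisense 1 to 4. Antisense 2 was the lowest sample and the other antisense samples were the highest. The difference was -0.34 (SE 0.21, adjusted p = 0.42, limma), with -0.56 without antisense 2 and -0.19 without antisense 4. The second SRSF6 feature read 30.23, 31.47, 30.39 and 30.56 in sense samples, against 31.48, 30.61, 31.81 and 31.96 in antisense samples. It differed by -0.80 (SE 0.32, adjusted p = 0.33, limma), the most negative of the 83. Sense 2 was close to antisense 1 in this feature, and antisense 2 lay among the sense samples.

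SRSF2, the protein once named SC35 and used as a marker of nuclear speckles, had 34.35, 33.49, 34.41 and 33.43 in sense 1 to 4, against 33.78, 33.61, 33.64 and 33.56 in antisense 1 to 4. The sense samples split by dye, with both Cy3 samples above all antisense samples and both Cy5 samples below them. The difference over all samples was 0.27 (SE 0.16, adjusted p = 0.42, limma). It was 0.17 without antisense 3, 0.67 within Cy3 (adjusted p = 0.015, limma) and -0.12 within Cy5. The interaction of construct and dye was called for 0 of 25094 features (limma), with an adjusted p of 0.95 for SRSF2. At an unadjusted p under 0.05 it counted 1173 features, 2 of them among the 83.

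SRSF11, which also resides in speckles, had 33.66, 33.55, 33.49 and 33.76 in sense 1 to 4, against 33.62, 33.22, 33.43 and 33.53 in antisense 1 to 4. The groups overlapped and the difference was 0.17 (SE 0.13, adjusted p = 0.53, limma), with 0.10 without sense 4 and 0.08 without antisense 2. SRSF5, whose difference was 0.05 and also positive, had 34.39, 34.69, 34.34 and 35.90 in sense 1 to 4, against 34.74, 34.60, 34.80 and 34.95 in antisense 1 to 4. Its sign was not stable. Sense 4 was the highest of the 8 samples, and without that sample the difference was -0.28. It was -0.11 without antisense 2, -0.41 within Cy3 and -0.0095 with median centring.

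The other 6 SR genes had differences from -0.32 in SRSF9 to -0.01 in SRSF4. SRSF3, the smallest SR protein, differed by -0.22, SRSF7 by -0.20, SRSF10 by -0.17 and SRSF1, the founding member of the family, by -0.16. SRSF1 had 5 features, all negative, but its difference turned to 0.05 without sense 4, its lowest sample at 32.91. SRSF9 had adjusted p = 0.39 over 8 samples and 0.032 within Cy3, where it differed by -0.48 (limma).

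The SRSF6 promoter is given as that of the SR gene with the lowest difference, from chr20:43457646-43457895 (+, GRCh38.p14, RefSeq), with GC boxes in capitals, here both on the opposite strand as CCGCCC.
SRSF6: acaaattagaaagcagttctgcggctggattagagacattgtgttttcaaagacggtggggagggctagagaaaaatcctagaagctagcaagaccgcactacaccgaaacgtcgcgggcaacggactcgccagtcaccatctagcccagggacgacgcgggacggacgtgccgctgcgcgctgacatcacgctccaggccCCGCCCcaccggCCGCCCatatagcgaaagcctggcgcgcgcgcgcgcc

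Of the 15 hnRNP genes, 14 had negative differences (93.3%), with a median of -0.22. Most of the 15 had mean signals above 33 log2 units. The negative share of all genes ran from 68.5% at 32 to 33 log2 units to 90.4% at 36 to 37. All 15 had a mean signal above 32 log2 units, where 76.0% of all genes were negative with a median of -0.15. Under quantile normalization 10 of the 15 were negative (66.7%) and the median was -0.10, against 57.9% and -0.04 for genes of that brightness. Without sense 4 the count was 12 of the 15 (80%) and the median -0.09, against 71.3% and -0.12. HNRNPH1, which binds runs of guanines, had the lowest difference of the 15. Its brightest feature read 33.85, 34.11, 33.82 and 34.43 in sense 1 to 4, against 34.44, 34.36, 34.54 and 34.55 in antisense 1 to 4. Sense 1, 2 and 3 lay below all antisense samples and sense 4 lay above antisense 2. The means were 34.06 ± 0.28 in sense and 34.47 ± 0.09 in antisense samples (SD, n = 4 each), and the difference was -0.42 (SE 0.14, adjusted p = 0.29, limma). With 3 against 3 samples it was -0.58 (adjusted p = 0.036, limma).

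The 3 HNRNPH1 features were close to each other, at -0.42, -0.47 and -0.36. The feature at -0.47 read 31.88, 32.12, 31.57 and 32.29 in sense samples, against 32.40, 32.36, 32.50 and 32.47 in antisense samples. It was the 1 feature of the 83 whose 4 sense and 4 antisense values did not overlap with sense below (1.20%), against 3.04% of all features. None of the 83 separated with sense above, against 3.35% of all features. The adjusted p of this HNRNPH1 feature, 0.27, was the smallest among the members (limma). Features of such a gene may also capture near-identical copies, and the positions of the probes are not given.

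HNRNPL, which binds CA repeats, had 33.65, 34.02, 33.68 and 33.10 in sense 1 to 4, against 33.93, 33.69, 34.02 and 34.10 in antisense 1 to 4. Sense 4 was the lowest sample, sense 2 stood among the highest, and the groups overlapped. The difference was -0.32 (SE 0.19, adjusted p = 0.41, limma), with -0.14 without sense 4 and -0.50 without sense 2. Its 3 features differed by -0.23 to -0.46.

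HNRNPU, also known as scaffold attachment factor A, had 34.55, 34.78, 34.59 and 34.05 in sense 1 to 4, against 34.91, 34.46, 34.76 and 34.76 in antisense 1 to 4. The groups overlapped, and sense 4 was again the lowest. The difference of the brightest feature was -0.23 (SE 0.17, adjusted p = 0.51, limma), with -0.09 without sense 4 and -0.38 without sense 2, and its 5 features ran from -0.52 to 0.04.

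The other 12 hnRNP genes lay between -0.28 in HNRNPD, a binder of AU-rich elements, and 0.10 in HNRNPC, which binds uridine tracts and was the 1 hnRNP gene with a positive difference. All 4 HNRNPC features were positive, at 0.07 to 0.19. HNRNPA1, the best known silencing hnRNP, differed by -0.14 and its 4 features by -0.14 to -0.28. The feature at -0.28 was called with 3 against 3 samples at -0.56 (adjusted p = 0.049, limma). It read 33.02, 33.45, 33.08 and 34.32 in sense 1 to 4, against 33.73, 33.78, 33.69 and 33.79 in antisense 1 to 4. Sense 4 lay above all antisense samples and the other sense samples below them. HNRNPA3 had 8 features, 7 of them negative, at -0.31 to 0.06. HNRNPA2B1 differed by -0.19, and by 0.09 without sense 4, where it had its lowest value of 32.58. HNRNPA1, HNRNPC and other members have near-identical copies in the genome that an oligonucleotide may also bind, so the gene behind their signal is uncertain.

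Both CLK kinases had positive differences on their brightest feature, with a median of 0.34. CLK4 had 28.33, 27.87, 28.47 and 28.26 in sense 1 to 4, against 27.70, 28.33, 27.47 and 27.81 in antisense 1 to 4. Antisense 2 was as high as sense 1 and the groups overlapped. The difference was 0.40 (SE 0.22, adjusted p = 0.40, limma). It was 0.81 within Cy3 (adjusted p = 0.032, limma) and -0.0050 within Cy5, and the second CLK4 feature differed by -0.21.

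CLK1, the paralog whose own transcript is known for retained introns, had 30.96, 30.44, 30.67 and 31.05 in sense 1 to 4, against 30.53, 30.21, 30.66 and 30.64 in antisense 1 to 4. Sense 1, 3 and 4 were above all antisense samples, sense 3 only just, and sense 2 was not. The difference was 0.27 (SE 0.17, adjusted p = 0.43, limma), 0.14 without sense 4 and 0.08 with 3 against 3 samples, and its second feature differed by 0.15. The CLK4 promoter, shown because CLK4 had the highest difference after PTBP1, is read from chr5:178627051-178627300 (-, GRCh38.p14, RefSeq), with GC boxes in capitals.
CLK4: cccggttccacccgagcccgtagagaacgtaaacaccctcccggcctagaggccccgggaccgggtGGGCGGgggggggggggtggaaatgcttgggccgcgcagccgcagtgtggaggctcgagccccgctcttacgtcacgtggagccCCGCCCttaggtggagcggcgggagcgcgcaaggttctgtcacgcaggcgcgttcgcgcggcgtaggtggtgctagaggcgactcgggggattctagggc

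Of the 5 genes for the branch point and 3' splice site, 1 had a negative difference and 4 positive ones, with a median of 0.03. With median centring 3 were negative and the median was -0.032. U2AF1, the subunit that reads the AG dinucleotide, had 36.64, 36.69, 36.76 and 35.89 in sense 1 to 4, against 36.98, 36.29, 37.03 and 36.82 in antisense 1 to 4. Antisense 1, 3 and 4 were the highest 3 samples and sense 4 the lowest. The difference was -0.29 (SE 0.20, adjusted p = 0.48, limma), with -0.13 without sense 4 and -0.45 without sense 2, and the other U2AF1 features differed by -0.38 and 0.15. U2AF2, the large subunit that binds the polypyrimidine tract, had 28.83, 28.85, 29.23 and 28.69 in sense 1 to 4, against 28.80, 29.00, 28.41 and 28.83 in antisense 1 to 4. The groups overlapped and the difference was 0.14 (SE 0.19, adjusted p = 0.72, limma), with 0.0030 without sense 3 and -0.15 within Cy5.

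SF3B1, the SF3b subunit that contacts the branch region, differed by 0.10 and SF3B2 by 0.03. SF3B3 had 32.80, 32.48, 32.94 and 31.97 in sense 1 to 4, against 32.57, 32.47, 32.49 and 32.53 in antisense 1 to 4. Sense samples lay on both sides of a narrow antisense range, with a difference of 0.03 (SE 0.16, adjusted p = 0.94, limma). Its dimmest feature was the only one of the 83 not detected in both constructs. That feature read 26.54, 25.26, 27.15 and 26.76 in sense samples and 25.53, 25.62, 25.25 and 25.35 in antisense samples, with means of 26.43 ± 0.82 and 25.44 ± 0.17 (SD, n = 4 each). The mean of the sense values lay 1.51-fold above that of the inferred antisense limits, a bound given without an error. Sense 2, at 25.26, lay below every antisense limit, the lowest of them 25.50. It counted as detected because the inferred limit of sense 2 was 24.62. The difference of the values as given was 0.99 (SE 0.34, adjusted p = 0.29, limma), and sense 2 lay within the antisense range. The remaining SF3B3 feature, annotated to a cDNA outside RefSeq, differed by -0.36.

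Features of the same gene did not always share a sign. Of the 22 genes with several features, 11 had only negative differences, 2 had only positive ones (HNRNPC and CLK1) and 9 had both. Over all 83 features 60 were negative. The 73 features annotated to a RefSeq transcript had a median of -0.19 and the 10 annotated to another cDNA or expressed sequence tag had a median of 0.00. Mean signals ran from 25.93 to 36.64 log2 units in the 73 and from 26.84 to 31.36 in the 10. Whether signal level has a part in this was not tested. Differences within a gene spanned 0.91 in TRA2A, 0.61 in CLK4, 0.56 in HNRNPU, 0.53 in U2AF1 and 0.46 in SRSF6, counting features detected in both constructs.

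**Figure D3:**
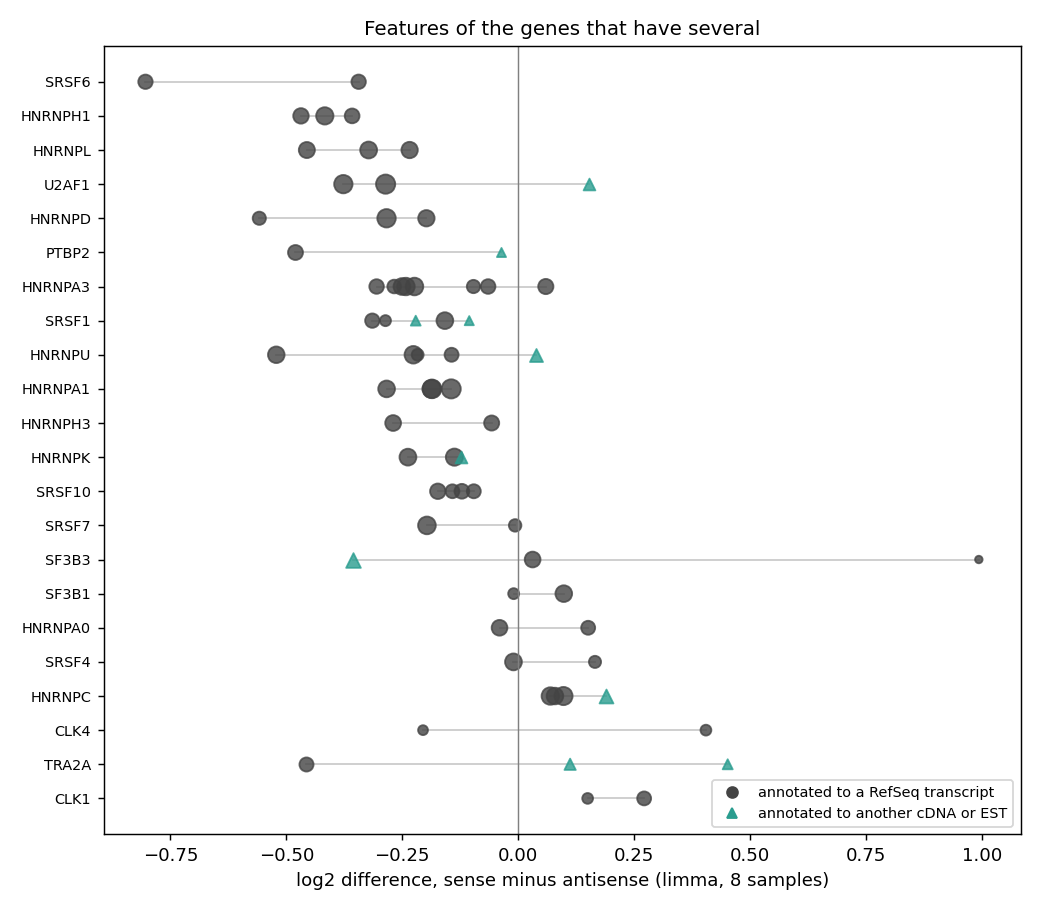
Log2 difference, sense minus antisense (limma, 8 samples), of every feature of the 22 genes with several features. Circles are annotated to a RefSeq transcript and triangles to another cDNA or EST, larger symbols have a higher mean signal, and a line joins the features of a gene. The HNRNPH1 features lie close together, those of TRA2A, SF3B3 and CLK4 fall on both sides of 0, and the SF3B3 point at 0.99 was under the detection limits in antisense samples.

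The members' values in sense 4 and antisense 2 set much of the spread. Antisense 2 had the lowest antisense value in 26 of the 36 genes (72.2%), against 32.7% of all features and 48.5% of genes with a mean signal of 32 log2 units or more. Sense 4 had the lowest sense value in 22 (61.1%), against 31.1% and 48.1%. Antisense 2 lay below the mean of the other antisense samples by a median difference of -0.29 over the members, and sense 4 below that of the other sense samples by -0.25. Over all features these medians were 0.07 and 0.03, and over genes of at least 32 log2 units -0.08 and -0.13. Among the members, SRSF5, SRSF4, HNRNPA0, SRSF11, HNRNPH1 and CLK1 had their highest sense value in sense 4. Antisense 2 held the highest antisense value of 6 members.

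Without these samples, which were chosen by their values, the groups separated in more genes. Leaving samples out can only raise this count, since groups that separate with all samples also separate with fewer. The rise is therefore no test of what these samples hide. In the 3 against 3 samples, 16 of the 36 genes had every sense value below every antisense value (44.4%), and 1 gene, CLK4, had every sense value above. The 16 were SRSF3, SRSF5, SRSF6, SRSF7, SRSF9, SRSF10, TRA2A, TRA2B, HNRNPD, HNRNPH1, HNRNPH3, HNRNPK, HNRNPM, HNRNPR, PTBP2 and U2AF1. Over features, 31 of 83 separated with sense below (37.3%), against 14.1% of all features, and 2 with sense above, against 12.5%. Among genes of at least 32 log2 units 32.3% separated with sense below, and among the 29 members of that brightness 13 did (44.8%).

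By limma on the 3 against 3 samples, 4 of the 83 features were lower in sense cells (4.82%), against 1.33% of all features, and 0 were higher, against 0.853%. Counted by the brightest feature of each gene, 3 of 36 genes were lower (8.33%), against 1.34% of all genes. Among genes of at least 32 log2 units it was 1 of 29 members (3.45%) against 3.19% of all. That cut leaves out PTBP2 and TRA2A, whose brightest features had mean signals of 31.69 and 30.78 log2 units. The 4 features belong to PTBP2, HNRNPH1, TRA2A and HNRNPA1. The median difference of the genes stayed at -0.16, with 24 of 36 negative. The stated analysis, significance analysis of microarrays (SAM) with a 1.4-fold filter, called 0 members at a false discovery rate of at most 5.4%, while it called 1.6% of all features as higher and 0.203% as lower in sense cells. At a rate of at most 10.3% it called 4 members as lower, against 1.63% of all features, namely features of HNRNPH1, SRSF6, PTBP2 and TRA2A. It called 1 as higher, the dim SF3B3 feature, against 4.24% of all features.

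Counts of calls also differed between the fits within each dye. Sense 4 and antisense 2 both carried Cy5, so dye and these samples cannot be told apart here. Within the 2 against 2 Cy3 samples limma called 15 of the 83 features as lower in sense cells (18.1%), against 6.48% of all features, and 3 as higher, against 5.03%. The higher ones were features of SRSF2, CLK4 and SF3B3. Counted by the brightest feature of each gene, 7 of 36 genes were lower within Cy3 (19.4%), against 7.71% of all genes. Among all genes of at least 32 log2 units 18.4% were called lower within Cy3, and among the 29 members of that brightness 4 were (13.8%). Within Cy5, which holds both sense 4 and antisense 2, limma called 0 members, against 0.00399% of all features as higher and 0.012% as lower. At an unadjusted p under 0.05 it also counted 0 members, against 1.39% and 1.16%. The median difference of the 36 genes was -0.15 within Cy3 and -0.17 within Cy5.

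Other splicing genes were read from 6 lists of textbook membership. In total 118 of their 128 genes were measured and limma called 0 of them over 8 samples. At an unadjusted p under 0.05, 5 had higher (4.24%) and 13 lower values (11%) in sense samples. By the brightest feature, 6.71% of all genes were higher and 8.26% lower. Among all genes of at least 32 log2 units 2.16% were higher and 15.6% lower. There were 69 negative differences and a median of -0.04. By median, proteins of U1, U2 and the Sm core came nearest to the members, with 16 of 21 negative and a median of -0.17. Their mean signals ran from 29.56 to 35.64 log2 units. Among all genes of at least 32 log2 units 76.0% were negative, with a median of -0.15. The smallest p-values of the U1, U2 and Sm core list belonged to the Sm proteins SNRPD2 (-0.40) and SNRPD1 (-0.48) and to the U2 proteins SF3B5 (-0.35) and SF3A3 (-0.38). Of the proteins of the tri-snRNP and the catalytic spliceosome 17 of 29 were negative, with a median of -0.04, and SNRNP40, TXNL4A, CWC15 and PRPF18 had the smallest p-values, with differences of -0.36, -0.30, -0.37 and -0.27. The other 12 of the 29 were positive, up to 0.39.

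Kinases, phosphatases and importers of SR proteins had 2 of 8 negative and a median of 0.12, with DYRK1A at 0.38, CLK2 at 0.19, SRPK1 at -0.19 and PPP1CA at -0.11. Other SR-related regulators had 19 of 37 negative and a median of -0.005, with TIAL1 at 0.48, NOVA1 at 0.44, RBMX at 0.34 and SRRM1 at -0.30. Other hnRNP proteins had 9 of 12 negative and a median of -0.04, with SYNCRIP at -0.29, HNRNPDL at -0.28, HNRNPA1L2 at -0.22 and PTBP3 at 0.14. Factors of nonsense-mediated decay and the exon junction had 6 of 11 negative and a median of -0.04, with MAGOH at -0.62, UPF1 at -0.50, CASC3 at -0.34 and SMG6 at 0.35.

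With 3 against 3 samples, 4 of the 118 genes were lower in sense cells (3.39%) and 0 higher by limma. By the brightest feature, the shares of all genes were 1.34% and 0.869%. Among all genes of at least 32 log2 units 3.19% were lower. The 4 genes were the exon junction proteins MAGOH (-0.79, adjusted p = 0.044) and CASC3 (-0.51, adjusted p = 0.038), the U5 protein SNRNP40 (-0.48, adjusted p = 0.041) and the U2 protein SNRPA1 (-0.45, adjusted p = 0.047).

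Promoter sequence was available for 32 of the 36 genes, with 45 starts, as 250 bases upstream of each start. Each motif was searched on both strands, and none of the motifs contains another. GC boxes (GGGCGG) were present at 60% of the member starts and in 42.6% of all 35116 promoters. CCAAT boxes were present at 33.3% of the member starts and in 32% of all, TATAAA at 13.3% and in 10.7%, and the ETS motif CCGGAAG at 13.3% and in 8.52%. The median GC content was 65.2% over the member starts and 58% over all promoters. A palindrome of 10 bases was found at 3 of the 45 member starts (6.67%) and in 0.373% of all promoters.

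The windows of 40 bases around this palindrome are shown because so few promoters hold it, and its letters are those in capitals. They lie at chr1:23980355-23980394 (-) for SRSF10, chr9:83980648-83980687 (-) for HNRNPK and chr10:68331966-68332005 (+) for HNRNPH3 (GRCh38.p14, RefSeq). The palindrome begins 52, 57 and 83 bases before the start of these genes in that order. All 3 genes had negative differences, at -0.17, -0.14 and -0.27, as had 25 of the 36 members (69.4%), and none of the 3 was called. With quantile normalization HNRNPK turned to 0.0057. Whether the palindrome has a part in these differences was not tested.
SRSF10: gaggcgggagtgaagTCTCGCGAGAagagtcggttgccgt
HNRNPK: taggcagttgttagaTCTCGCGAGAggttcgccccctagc
HNRNPH3: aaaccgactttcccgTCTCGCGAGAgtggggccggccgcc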

How the data were processed

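Per the submitters' processing notes, arrays were read with Agilent Feature Extraction 9.5. The sources used here do not give the background and dye correction. The deposited values, a linear intensity per feature, were scaled between samples by the 40% trimmed mean per the design text. That text also counts a feature as expressed above the negative controls and keeps only features for which the samples of a construct had the same status. Detection limits were inferred here from that filter, at 25.7 to 48.2 units of 1000000 in sense and 47.4 to 72.4 in antisense samples. Of 45015 features, 25094 had values in all 8 samples.

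Log2 values were fitted with limma 3.58.1 in R 4.3.3 (construct and dye, mean-variance trend, two-sided), with Benjamini-Hochberg adjustment over all features. Per gene, the feature with the highest mean log2 was used. The SAM statistic was recoded and used the 20 permutations that 3 against 3 samples allow. The limma fit of construct and dye and the SAM statistic were tested on simulated data. The number of arrays limits the precision. Dye and 3 against 3 fits, normalizations and left-out samples were the alternatives. Members and lists were chosen with earlier results of these data known. Sample values are given for members past the threshold over 8 samples or called by SAM, the 5 lowest and 5 highest differences, the 5 widest spans between features and paralog pairs, and, after their values were seen, for SRSF5 and an HNRNPA1 feature. Names come from the platform annotation and promoters from RefSeq.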

Additional observations from a re-analysis of the deposited data

Results flagged for a closer look

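In 6 of 72 groups of 4 samples, 1 sample of a member's brightest feature lay farther from the rest than Dixon's 95% value allows, where chance flags about 1 in 20 groups. Each was the lowest of its group, 2 in sense 4 and 4 in antisense 2. In sense 4, HNRNPA2B1 read 32.58, against 33.65 to 33.82 in the other sense samples. U2AF1 read 35.89 in sense 4, against 36.64 to 36.76. In antisense 2, HNRNPM read 35.12, against 35.77 to 35.87 in the other antisense samples. SRSF3 read 35.32 there, against 35.82 to 35.86. TRA2B read 33.88, against 34.32 to 34.40, and HNRNPD read 35.56, against 35.83 to 35.84. These are the samples that the coefficient of variation set apart over all features.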

How the results depend on the processing

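The median difference of the 36 genes kept its sign in all 20 alternatives run, from -0.23 with median centring to -0.05 with quantile normalization, and from -0.22 to -0.07 without 1 sample. Some of these could not move it. It stayed at -0.17 without dye, with either block, with detected features only and without the mean-variance trend. Those settings leave the fitted differences of the 36 genes unchanged, so they do not test the sign. The count of member features called, 0 over 8 samples, was 18 within Cy3 (3 higher and 15 lower in sense), 4 by limma on 3 against 3 samples and 5 by SAM at 10.3%, and 0 in the other 19. The count over all features, 17, was 2888 within Cy3, 4 within Cy5, 549 by limma on 3 against 3 samples, 452 and 1473 by SAM at 5.4% and 10.3%, 1 for detected features only, and 10 both with 16 units of 1000000 added before log2 and without the mean-variance trend. Leaving out 1 sample gave 4 to 20. With the replicate number as a block it was 7. Samples of replicates 1 to 4 deviated with their same-numbered partners with correlations of 0.28, 0.001, 0.11 and -0.11. Sense 4 and antisense 2 deviated together with a correlation of 0.28. Whether same-numbered samples shared a processing step was not tested. With pairs of equal column median as a random block, chosen after seeing the data, the count over all features was 7. Of all 36 genes, 5 turned sign within Cy3, 7 within Cy5, 5 with quantile normalization, 3 with median centring, 3 with 3 against 3 samples and 1 to 4 without 1 sample. Among genes with sample values by the rule, signs turned for CLK4 (-0.0050), SRSF2 (-0.12) and U2AF2 (-0.15) within Cy5, for TRA2A (0.036) as the mean over features, and for SF3B3, at -0.28 within Cy5, -0.032 with median centring and -0.058 to 0.192 without 1 sample. The splicing lists had 0 calls also as means over features. The causes were not tested.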
